A study of Mus musculus with 3 samples.

Results

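The genes described here were 9 of the 32285 genes counted in a single-cell RNA-seq study of the mouse kidney at embryonic day E15.5, all of them members of the SOX family of transcription factors. They were chosen by symbol and comprised Sox4, Sox11 and Sox12 (subgroup SoxC), Sox5 and Sox6 (SoxD), Sox8 and Sox9 (SoxE), and Sox17 and Sox18 (SoxF). Their unique molecular identifiers (UMIs, 1 per captured mRNA molecule) were read in cells in which 1000 to 6000 genes were found and no more than 10% of UMIs were mitochondrial. The study asked how an ENL mutation found in Wilms tumour alters kidney development, and whether an inhibitor of ENL reverses it. Each of 3 groups was a single library. Enl-WT kidneys were Enl +/+ Wt1 GFPCre/+ without treatment, Enl-T1 kidneys were Enl flox-T1/+ Wt1 GFPCre/+ without treatment, and the TDI-11055 library came from kidneys of the Enl-T1 genotype whose mothers took 100 mg/kg of TDI-11055 by mouth daily from E10.5 to E14.5. TDI-11055 blocks the acyl-lysine pocket of the YEATS domain, with which ENL reads histone marks, and the T1 allele carries a small insertion in that domain. All 3 groups carried the GFPCre knock-in, which inactivates a Wt1 allele. Cre driven by Wt1 acts in nephron and stromal progenitors, and ureteric epithelium and endothelium are not among the cells for which it is described. Kidneys of several embryos of a B6 background and of either sex were pooled in each library, and no map from cells to embryos was used here. With 1 library per group there was no test between groups, and all intervals given below are at 95% and express counting error alone.

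SOX proteins bind the minor groove of DNA through a high-mobility-group (HMG) box and bend it, and they usually act together with partner factors. SoxC proteins are known from progenitor cells of many organs, SoxD proteins lack an activation domain and work with other SOX proteins, SoxE proteins drive cartilage, neural crest and gonad programmes, and SoxF proteins act in blood and lymphatic vessels. In the kidney, Sox8 and Sox9 act in the ureteric tip, where they sustain Ret signalling and branching, Sox9 also marks tubule precursors and repair, and Sox4 and Sox11 are needed for normal nephron formation.

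A stretch of the HMG box is shown because the box is what made these genes a family and what divided it into subgroups. Each line gives 72 bases, 5′ to 3′ on the coding strand, from the start of an unbroken run of 9 residues identical in all 9 proteins. Capitals mark the 27 bases that encode this run, whose start was not matched to an annotated start of the box.
Sox4: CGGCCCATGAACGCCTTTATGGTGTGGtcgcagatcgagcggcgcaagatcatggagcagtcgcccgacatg
Sox5: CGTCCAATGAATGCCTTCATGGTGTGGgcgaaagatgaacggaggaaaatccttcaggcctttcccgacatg
Sox6: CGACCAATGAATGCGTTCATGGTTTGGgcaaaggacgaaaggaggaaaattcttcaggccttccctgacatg
Sox8: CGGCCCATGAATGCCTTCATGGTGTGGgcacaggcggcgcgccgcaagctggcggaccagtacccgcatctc
Sox9: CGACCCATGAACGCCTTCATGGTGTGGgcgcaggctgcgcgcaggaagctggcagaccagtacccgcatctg
Sox11: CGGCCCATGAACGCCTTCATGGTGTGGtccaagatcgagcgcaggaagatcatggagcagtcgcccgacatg
Sox12: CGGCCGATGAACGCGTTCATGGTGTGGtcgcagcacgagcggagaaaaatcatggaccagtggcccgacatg
Sox17: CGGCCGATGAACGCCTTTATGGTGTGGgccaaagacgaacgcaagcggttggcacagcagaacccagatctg
Sox18: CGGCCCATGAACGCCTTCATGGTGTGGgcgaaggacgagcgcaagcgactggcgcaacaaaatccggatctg
These lines lie, in GRCm38 (mm10) with the GENCODE M21 annotation, at chr13:28952770-28952841 for Sox4, chr6:143841202-143841273 for Sox5, chr7:115489691-115489762 for Sox6, chr17:25570151-25570222 for Sox8, chr11:112782903-112782974 for Sox9, chr12:27342187-27342258 for Sox11, chr2:152397504-152397575 for Sox12, chr1:4493128-4493199 for Sox17 and chr2:181671210-181671281 for Sox18. All are in coding exons, on the plus strand for Sox9 and on the minus strand for the others. Over 70 codons from this start, the 6 pairs within a subgroup shared 82.4 to 91.0% of bases and 87.1 to 98.6% of residues, against 52.9 to 76.7% and 48.6 to 72.9% for the 30 pairs from different subgroups. Sox4, Sox11 and Sox12 have a single exon, while Sox5 and Sox6 have 25 exon blocks each and spread over chr6:143828425-144781977 and chr7:115470872-116038796. The UMIs of different members could be told apart well, since at most 21 of the 31-base words of any member occurred in another. Sox4 shared 54.3% of its words with other annotated genes, mostly Gm26735, a gene at the same place for which no counts were analysed here.

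The Enl-WT, Enl-T1 and TDI-11055 libraries held 37221435, 63336586 and 76619303 UMIs, and 5233, 4144 and 2754 cells were kept. Values are given in this order of libraries where none is named. Their median depth was 5090, 9391 and 16931 UMIs. Xist without any UMI of the Y chromosome was found in 26.5%, 73.3% and 35.1% of them, so the Enl-T1 library held more female cells. Mllt1, the gene of ENL, had 28.9, 22.5 and 20 CPM (counts per 1e+06 UMIs of the class in that library) in nephron progenitors, and its 3′ tags did not separate the alleles. Cells were clustered without any Sox gene. Clusters were named from marker genes as nephron, stroma, ureteric epithelium and endothelium, and subdivided. The defining markers were present in the classes named for them: Six2 at 176.8, 83.2 and 176.2 CPM in the uncommitted nephron progenitor class (NP1-like), Col1a1 at 956.2, 935.4 and 518.8 CPM in stroma, Calb1 at 1092.2, 999.3 and 1579.0 CPM in ureteric epithelium and Pecam1 at 762.7, 498.5 and 417.8 CPM in endothelium. Between 5 and 8 barcodes were shared by any pair of libraries.

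The 9 genes differed in their distribution over cell types, apart from Sox17 and Sox18. Sox4 and Sox11 were found in every class. Among the 8 classes with at least 50 cells in each library, Sox9 and Sox8 were highest in ureteric tip-like cells. Among the same classes Sox6 was highest in ureteric trunk-like cells and Sox12 in NP1-like cells. Sox17 and Sox18 were only in endothelium above the level of stray UMIs.

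**Figure D1:**
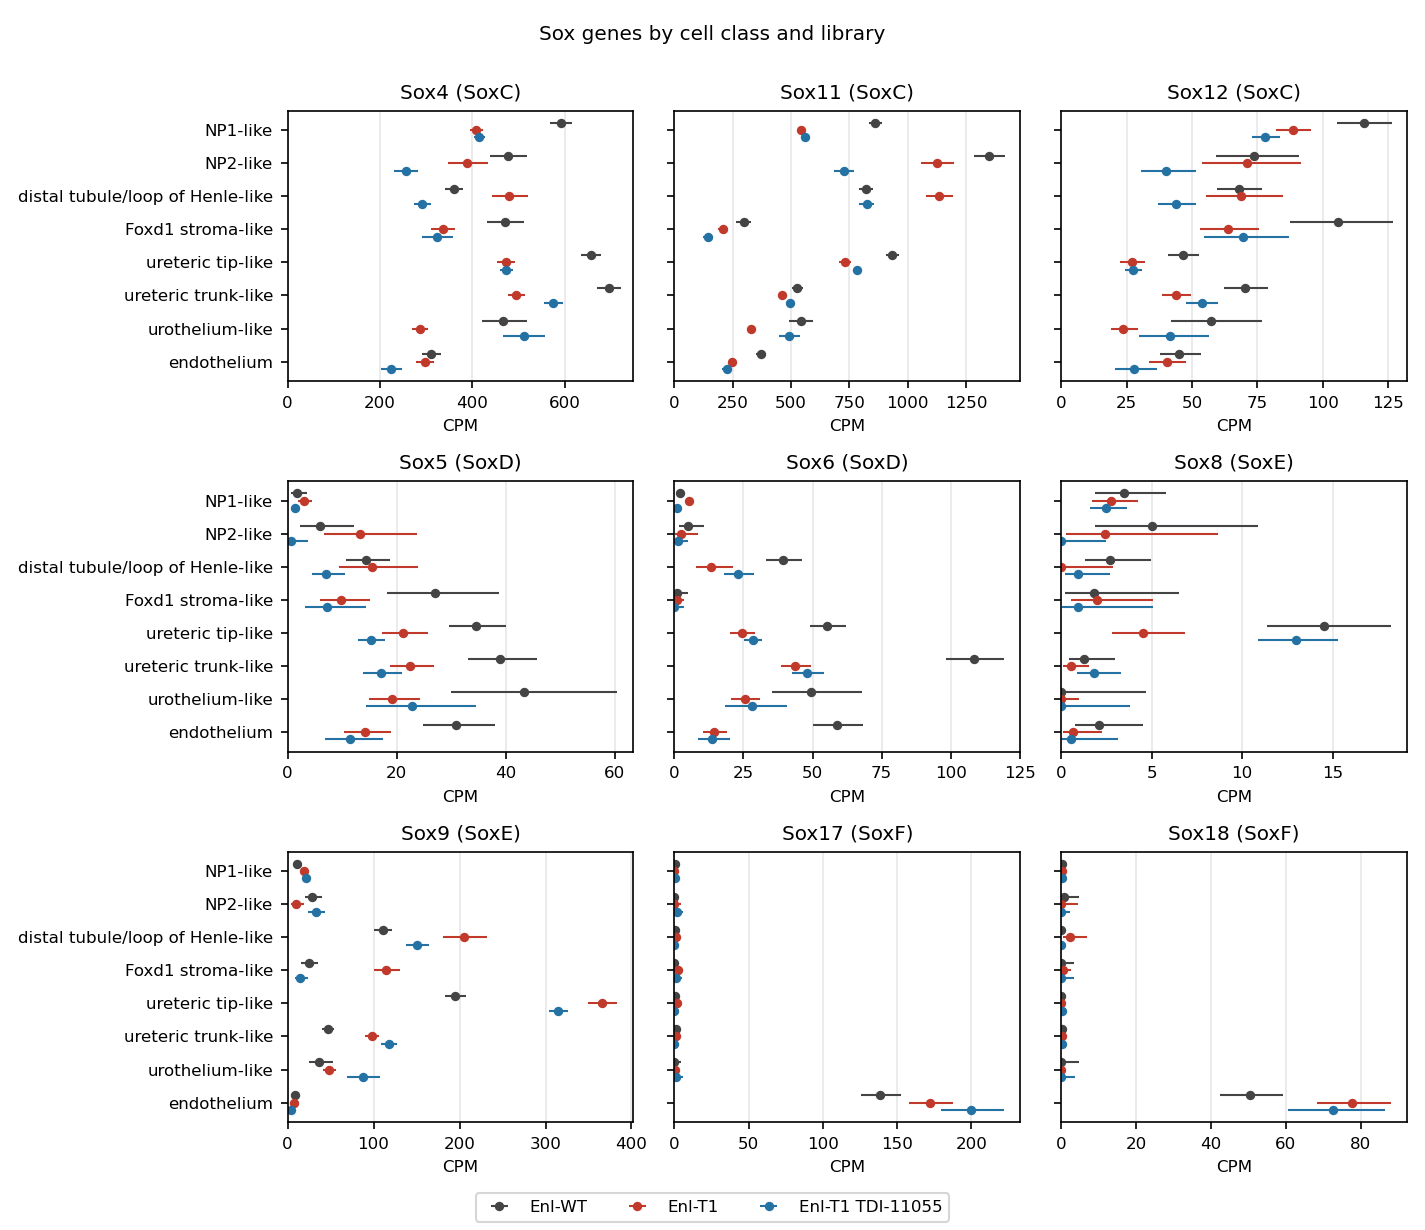
Level of each Sox gene (CPM of summed UMIs, horizontal axis from 0) by cell class (vertical axis), with a point for each library and bars for the 95% counting interval. Sox17 and Sox18 stand above the baseline in endothelium alone, and Sox9 is highest in ureteric tip-like cells in all 3 libraries.

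Enl-T1 and Enl-WT were compared first. In this contrast 12 of 24 combinations of gene and lineage with at least 5 CPM differed by 1.5-fold or more, 3 of them higher and 9 lower in Enl-T1. With median-of-ratios scaling the split was 5 higher and 5 lower, and in ureteric epithelium 1 and 2 of 7. With a total without mitochondrial, ribosomal protein and haemoglobin genes it was 4 and 6. The median gene was itself lower in Enl-T1, by a log2 ratio of −0.33 in NP1-like cells, −0.30 in stroma, −0.30 in ureteric epithelium and −0.31 in endothelium. In NP1-like cells 1 of 4 Sox genes was at least 1.5-fold higher and 1 lower, where 6.31% and 31.5% of 9823 genes were. In stroma 1 of 5 was higher and 1 lower, beside 6.89% and 29.2% of 10429 genes. Ureteric epithelium had 0 of 7 higher and 5 lower, beside 5.68% and 26.8% of 10456 genes. Endothelium had 1 of 8 higher and 2 lower, beside 5.86% and 29.1% of 9868 genes. The median log2 ratio of the Sox genes was −0.46, −0.37, −0.71 and −0.19 in these 4 classes, furthest below the median of all genes in ureteric epithelium and above it in endothelium.

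TDI-11055 and untreated Enl-T1 differed in fewer combinations, 3 of 24. In NP1-like cells 0 of 4 Sox genes were past 1.5-fold in either direction, where 6.49% of all genes were higher and 8.46% lower. Stroma had 0 of 5 higher and 1 lower, beside 10.8% and 12.5%. In ureteric epithelium 1 of 7 was higher and 0 lower, beside 7.70% and 9.73%. Endothelium had 0 of 8 higher and 1 lower, beside 9.36% and 19.2%. The 3 combinations were Sox9 in stroma, Sox8 in ureteric epithelium and Sox9 in endothelium, the last on only 23 UMIs in Enl-T1 and 6 in TDI-11055. Both contrasts share the Enl-T1 library.

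**Figure D2:**
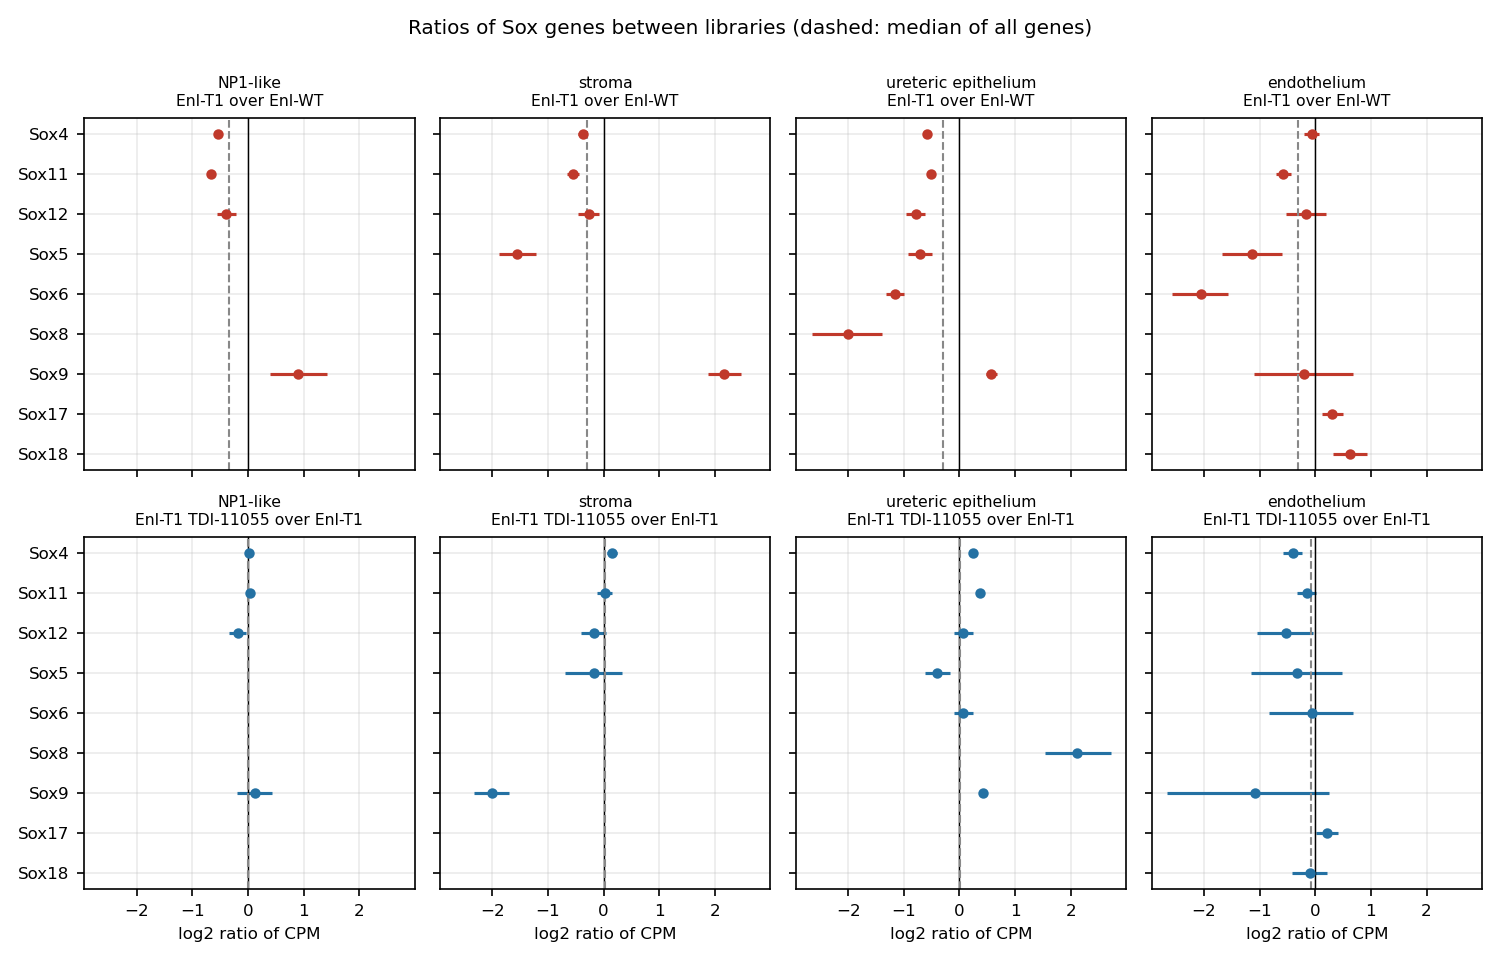
Log2 ratio of CPM for each Sox gene with at least 5 CPM in NP1-like cells, stroma, ureteric epithelium and endothelium, with Enl-T1 set against Enl-WT and TDI-11055 against Enl-T1, and 95% counting intervals. The dashed line is the median of all genes of the class, which lies near −0.3 in the first contrast and near 0 in the second, and Sox9 in stroma departs most from it in the first.

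Among the SoxC genes, Sox4 and Sox11 lay below their Enl-WT level in Enl-T1 progenitors, stroma and ureteric epithelium, and in NP1-like cells TDI-11055 and untreated Enl-T1 were close. Sox4 in NP1-like cells, the class named for progenitor genes such as Six2 and Cited1, was at 590.6, 408.0 and 415.1 CPM (2395, 3105 and 4226 UMIs). Sox11, its closest relative, was at 861.2, 542.7 and 558.1 CPM in the same cells. Enl-WT was thus the high library for both, and the other libraries lay close together. The ratio of Enl-T1 to Enl-WT was 0.691 (0.655 to 0.729) for Sox4 and 0.630 (0.602 to 0.659) for Sox11. Against the median gene of the class this left a log2 difference of −0.20 and −0.33. TDI-11055 over Enl-T1 gave 1.02 (0.971 to 1.07) for Sox4 and 1.03 (0.988 to 1.07) for Sox11. Of the 699, 591 and 585 NP1-like cells, 321, 149 and 188 lay in a cluster led by progenitor genes, Cited1 among them. The other clusters of the class were led by cell-cycle genes. The decrement in Enl-T1 was seen in each of the 4 clusters that made up the class. There the ratio of Enl-T1 to Enl-WT ran from 0.617 to 0.759 for Sox4 and from 0.612 to 0.696 for Sox11. The treated library was less even, with ratios to Enl-T1 of 0.732 to 1.15 and 0.755 to 1.32.

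The share of NP1-like cells with a Sox4 or Sox11 UMI was compared after each cell was thinned to 2000 UMIs. The shares with Sox4 were then 66.7% (63.0 to 70.2), 50% (45.9 to 54.1) and 46.4% (42.3 to 50.5). Sox11 was seen in 82.5% (79.4 to 85.2), 62.0% (58.0 to 66.0) and 55.5% (51.3 to 59.6). The Enl-T1 shares lay below those of Enl-WT, as the CPM did, while the step from Enl-T1 to TDI-11055 went against the CPM and no order of those libraries was read. Without thinning the shares were 89.1%, 94.1% and 86.3% for Sox4 and 96.7%, 98% and 89.7% for Sox11, at median depths of 5234, 12165 and 19280 UMIs. Both genes were seen together in 55.3%, 32.5% and 29.5% of thinned cells, and the product of their separate shares was 55.0%, 31% and 25.7%. The pair therefore occurred together about as often as their separate shares imply in the untreated libraries.

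Sox12, the weakest activator of the SoxC genes, was highest in NP1-like cells among the classes plotted, in every library, at 115.7, 88.6 and 78.1 CPM. Its ratio of Enl-T1 to Enl-WT there was 0.766 (0.680 to 0.863), which is −0.05 on the log2 scale once the median gene is subtracted. In ureteric epithelium it was at 59.3, 34.4 and 36.2 CPM, a ratio of 0.579 (0.516 to 0.650) with −0.49 left after that subtraction, and TDI-11055 was 1.05 (0.940 to 1.18) times Enl-T1. Sox12 was thus lower in the Enl-T1 ureteric epithelium beyond the general shift, and TDI-11055 was close to Enl-T1.

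In ureteric epithelium Sox4 was at 661.3, 439.5 and 524.5 CPM and Sox11 at 740.6, 521.6 and 679.1 CPM. Enl-T1 was the lowest library for both, with ratios to Enl-WT of 0.665 (0.643 to 0.687) and 0.704 (0.683 to 0.726), and TDI-11055 was at 1.19 (1.16 to 1.23) and 1.30 (1.27 to 1.34) times Enl-T1. The makeup of the epithelium moved with these values, since tip-like cells formed 46.9%, 30.6% and 52.4% of it and urothelium-like cells 7.96%, 21.9% and 5.18%. Within tip-like cells alone the ratio of TDI-11055 to Enl-T1 was 1.00 for Sox4 and 1.07 for Sox11. Of 10 ureteric clusters compared, TDI-11055 was above Enl-T1 in 8 for Sox4 and in 9 for Sox11. The median ratios over these clusters were 1.16 and 1.08. The part of makeup in the values of the whole epithelium was not tested. In stroma Sox4 was at 457.3, 352.8 and 391.6 CPM and Sox11 at 250.2, 170.9 and 173.5 CPM, and the ratio of Enl-T1 to Enl-WT was 0.772 and 0.683 (0.633 to 0.738). Of 5 stromal clusters with at least 20 cells in each library, 1 was higher in Enl-T1, at a ratio of 1.75 for Sox4 and 1.69 for Sox11. Among smaller ones, ureteric stroma-like cells were also higher, at 270.1 against 237.4 CPM of Sox4 and 219.0 against 201.3 CPM of Sox11. Endothelial Sox4 was 310.0, 296.3 and 223.7 CPM, so here the treated library was the low one, at 0.755 (0.670 to 0.850) of Enl-T1. Of the SoxC partners and targets Tead2 and Tubb3, only Tead2 reached a mean of 5 CPM in the 4 lineages. In NP1-like cells Tead2, a Hippo pathway factor and known SoxC target, was at 206.9, 121.4 and 158.2 CPM, with ratios of 0.587 and 1.30, and it did not pass 1.5-fold in the other 3 lineages.

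Later in the nephron the SoxC genes took another course. In NP2-like cells, the committing progenitors with Wnt4 and Lhx1, Sox11 was at 1350.3, 1126.3 and 725.2 CPM, and the Enl-WT value was the highest of the classes plotted. Sox4 was at 476.9, 388.7 and 256.0 CPM there. TDI-11055 was the lowest library for both, at 0.644 and 0.659 of Enl-T1. Its NP2-like cells were also shallow, with a median of 5136 UMIs against 6907 in Enl-WT and 12946 in Enl-T1, and the part of this was not tested. Distal tubule and loop of Henle-like cells had more of both genes in Enl-T1 than in either other library: Sox4 was at 360.7, 479.9 and 291.5 CPM and Sox11 at 821.5, 1134.8 and 823.9 CPM. The ratio of Enl-T1 to Enl-WT was 1.33 (1.21 to 1.46) for Sox4 and 1.38 (1.30 to 1.47) for Sox11, against 0.607 and 0.726 for TDI-11055 over Enl-T1. The sign of the Enl-T1 difference thus changed along the nephron, though that class held only 106 cells in Enl-T1 against 587 in Enl-WT.

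The SoxD genes Sox5 and Sox6, which have no activation domain of their own, were below their Enl-WT level in the ureteric epithelium and endothelium of Enl-T1, and Sox5 also in stroma. In none of these was either gene higher with TDI-11055 beyond counting error. Sox6 in ureteric epithelium was at 72.5, 32.4 and 34.0 CPM in Enl-WT, Enl-T1 and TDI-11055 (813, 503 and 646 UMIs). Enl-WT stood apart, and the ratio of Enl-T1 to it was 0.447 (0.399 to 0.50), a log2 difference of −0.86 beyond the median gene. TDI-11055 was 1.05 (0.932 to 1.18) times Enl-T1. The trunk-like cells, where Sox6 was highest, went from 108.5 CPM in Enl-WT to 43.8 in Enl-T1 and 47.9 in TDI-11055, and tip-like cells from 55.3 to 24.5 and 28.3. In endothelium Sox6 was at 58.7, 14.2 and 13.6 CPM (169, 45 and 24 UMIs). That was the lowest ratio of any member in the 4 lineages, 0.241 (0.169 to 0.337) or −1.74 on the log2 scale beyond the median gene, with TDI-11055 at 0.963 of Enl-T1. Distal tubule and loop of Henle-like cells had 39.3, 13.2 and 23.0 CPM of Sox6. The ratio of Enl-T1 to Enl-WT for Sox5 in those cells was 1.08 (0.610 to 1.83), an exception.

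Sox5 was at 40.6, 13.9 and 12.4 CPM in stroma (166, 153 and 43 UMIs). The ratio of Enl-T1 to Enl-WT was 0.342 (0.273 to 0.429), and that of TDI-11055 to Enl-T1 was 0.890 (0.619 to 1.26). Stroma differed in makeup between the libraries, with renin or mesangial-like cells, in which Sox5 was above the mean of stroma, numbering 180, 94 and 23. Within these cells Sox5 was at 63.9, 43.7 and 17.9 CPM, so a lower value in Enl-T1 was also seen there. In ureteric epithelium Sox5 was at 35.2, 21.6 and 16.4 CPM, with ratios of 0.613 (0.528 to 0.711) and 0.760 (0.649 to 0.890). Endothelial Sox5 was at 30.9, 14.2 and 11.4 CPM, with ratios of 0.458 (0.312 to 0.662) and 0.802. Sox5 and Sox6 were hardly seen in NP1-like cells, where neither passed 5.26 CPM in any library. Their antisense neighbours Sox5os1 to Sox5os5 and Sox6os had at most 10 and 39 UMIs per library.

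Gene length moved with the ratio of Enl-T1 to Enl-WT over all genes. Across the genes tested, which are not independent replicates, the Spearman correlation of the log2 ratio with exonic length was −0.45 in NP1-like cells, −0.43 in stroma, −0.51 in ureteric epithelium and −0.35 in endothelium. Sox5 and Sox6, with 14376 and 14832 exonic bases, and Sox11, with 8311, lie among the longest 25% of these genes. In ureteric epithelium the 2614 longest genes had a median log2 ratio of −0.60, and Sox6 was at −1.16 and Sox5 at −0.71. In stroma the median of the longest genes was −0.59 and Sox5 was at −1.55, and in endothelium it was −0.51 and Sox6 was at −2.05. Sox11 in NP1-like cells, at −0.67, was close to the median of the longest genes there, −0.65. The part of length in the SoxD and SoxC values was not tested. Sox9, with 4135 exonic bases, and Sox8, with 3118, are shorter.

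Sox9, the SoxE gene of the ureteric tip, was above its Enl-WT level in the ureteric epithelium, stroma and nephron cells of Enl-T1, against the general shift towards lower values. With TDI-11055 it was lower again in stroma, but not in ureteric epithelium taken whole, though TDI-11055 was above Enl-T1 in only 2 of 10 ureteric clusters. The stromal difference was the widest. Sox9 was at 24.9 CPM in the stroma of Enl-WT (102 UMIs), 112.1 in Enl-T1 (1235 UMIs) and 27.9 in TDI-11055 (97 UMIs). Enl-T1 stood apart, and the other libraries had nearly the same level. The ratio of Enl-T1 to Enl-WT was 4.49 (3.67 to 5.55), which is 2.47 on the log2 scale beyond the median gene, and the ratio of TDI-11055 to Enl-T1 was 0.249 (0.200 to 0.306). Endothelium, where Sox9 should be absent, had 8.34, 7.23 and 3.41 CPM.

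The difference between Enl-WT and Enl-T1 was not that of a single stromal cell type. Of the 5 stromal clusters with at least 20 cells in every library, Enl-T1 was higher than Enl-WT in 5, at ratios of 1.79 to 7.13 with a median of 3.22. TDI-11055 was lower than Enl-T1 in all 5, at 0.0564 to 0.350. These clusters were either Foxd1 stroma-like or unnamed. Cortical Foxd1 stroma-like cells, which surround the nephron progenitors, had 24.4, 115.0 and 14.6 CPM. Medullary stroma-like cells had 20.6, 77.9 and 27.7 CPM, the last from only 14 cells. Ureteric stroma-like cells, the smooth muscle precursors around the ureter, had the highest levels of the named stromal classes in each library, at 92.9, 253.5 and 296.4 CPM, and made up 5.40%, 16.6% and 3.70% of stroma, the last being 10 cells. Without them the stromal level was 21.6, 86.6 and 20.1 CPM. Renin or mesangial-like cells showed little difference, at 9.74, 14.6 and 17.9 CPM. Among the named classes, TDI-11055 was thus below Enl-T1 in Foxd1 and medullary stroma-like cells. It was not below Enl-T1 in ureteric stroma-like or renin or mesangial-like cells.

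**Figure D3:**
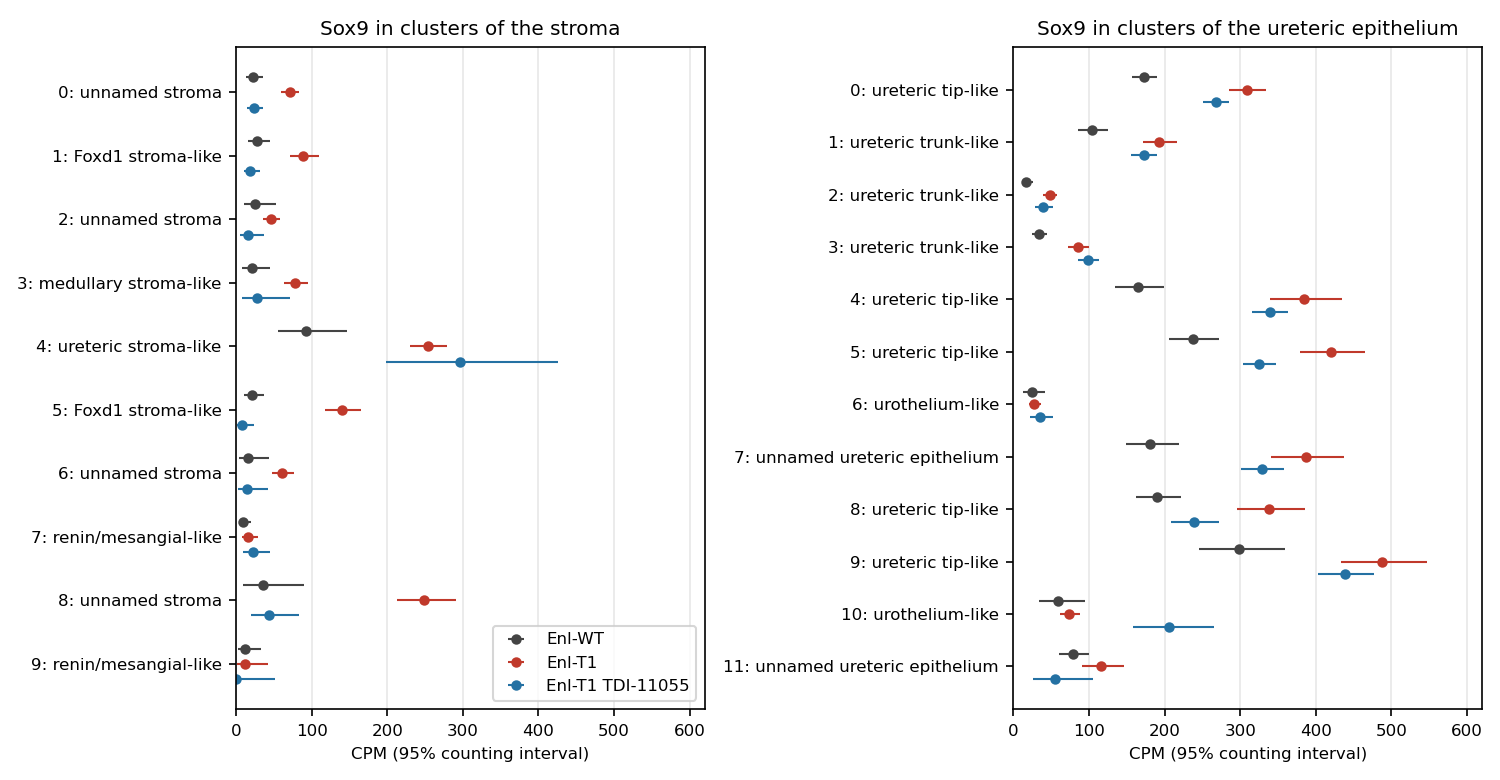
Sox9 level (CPM) in the clusters of stroma and of ureteric epithelium, a point for each library with 95% counting intervals. In the 5 stromal clusters with at least 20 cells in every library the Enl-T1 points lie above the others, and in the 10 such ureteric clusters the Enl-WT points are lowest.

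After thinning to 2000 UMIs, the shares of stromal cells with a Sox9 UMI were 4.24% (2.99 to 5.82), 15.8% (13.9 to 17.8) and 3.72% (1.80 to 6.73). The shares of endothelial cells were 2.09%, 1.17% and 0 of 115 cells, which allows a share of up to 2.61% (3 of the cells). Enl-T1 thus stood apart in the share of stromal cells as well as in CPM. Unthinned, 9.30%, 36.4% and 18.9% of stromal cells had a UMI, from a median of 4037, 6924 and 13315 UMIs a cell, and the endothelial shares were 4.85%, 4.69% and 5.22% from a median of 5664, 10451 and 14222 UMIs. The 12 ureteric epithelium markers summed to 245.5, 202.6 and 109.7 CPM in stroma, against 4797.7, 5954.0 and 4868.9 CPM in ureteric epithelium itself. Single markers went either way in stroma, with Gata3 at 89.5, 23.5 and 24.1 CPM and Krt18 at 33.3, 52.9 and 14.4 CPM. In Foxd1 stroma-like cells the same sum was 86.8, 150.6 and 74.0 CPM, which did move with Sox9. The part of epithelial RNA in the stromal Sox9 level was not tested. Enl-T1 stromal cells with a thinned Sox9 UMI had 274.0 CPM of these markers against 197.2 CPM in those without, and 5710.0 CPM of the stromal markers against 5070.6 CPM.

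In ureteric epithelium Sox9 was at 122.7, 183.0 and 244.4 CPM (1376, 2839 and 4644 UMIs). Enl-T1 was at 1.49 (1.4 to 1.59) times Enl-WT, and TDI-11055 at 1.34 (1.27 to 1.4) times Enl-T1. Over the whole epithelium the log2 ratio of the second step, 0.42, was −0.03 in cells with Y-linked UMIs only. Within the tip that step went the other way, with a log2 ratio of −0.22, which was −0.02 in cells with Xist only. Tip-like cells, which carry Ret and Wnt11, had 194.9, 365.8 and 315.1 CPM, with ratios of 1.88 (1.74 to 2.03) and 0.861 (0.813 to 0.913). Of 10 ureteric clusters compared, Enl-T1 was above Enl-WT in 10, at ratios of 1.15 to 2.82, while TDI-11055 was above Enl-T1 in 2. The tip share of the epithelium, 46.9%, 30.6% and 52.4%, was again lowest in Enl-T1. Trunk-like cells had 47.1, 98 and 117.6 CPM and urothelium-like cells 36.9, 48.2 and 87.2 CPM. Thinned shares of tip-like cells with Sox9 were 31.9% (28.7 to 35.3), 48.3% (43.1 to 53.6) and 42.9% (38.6 to 47.3), and unthinned ones were 57.6%, 86.1% and 88.6%.

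In the nephron, Sox9 was low in NP1-like cells and highest in distal tubule and loop of Henle-like cells. NP1-like cells had 10.4, 19.3 and 21.0 CPM (42, 147 and 214 UMIs), and the ratio of Enl-T1 to Enl-WT was 1.86 (1.32 to 2.69). Distal cells had 110.6, 205.1 and 150.2 CPM, with ratios of 1.86 (1.58 to 2.17) and 0.732. NP2-like cells were the exception, at 28.5, 9.63 and 32.5 CPM, but the Enl-T1 value rested on 8 UMIs. Enl-T1 exceeded Enl-WT in 9 of 11 nephron clusters compared, with a median ratio of 2.32.

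Sox8, the other SoxE gene, moved opposite to Sox9 between Enl-WT and Enl-T1 in the same epithelium. With TDI-11055 it was above its untreated Enl-T1 level, as Sox9 was over the whole epithelium but not within tip-like cells. It was at 7.76, 1.93 and 8.37 CPM in ureteric epithelium (87, 30 and 159 UMIs), and most of it lay in tip-like cells, where 74, 22 and 138 UMIs gave 15, 4.52 and 13.0 CPM. Enl-T1 was thus the low library, and TDI-11055 matched Enl-WT closely. For tip-like cells the ratios were 0.311 (0.184 to 0.507) for Enl-T1 over Enl-WT and 2.86 (1.82 to 4.72) for TDI-11055 over Enl-T1. The log2 ratio of Enl-T1 to Enl-WT, −1.68, was −0.92 in cells with Xist alone. Enl-T1 was above Enl-WT in 1 of 10 clusters, and TDI-11055 above Enl-T1 in 9. Trunk-like cells had at most 1.80 CPM and urothelium-like cells none. The thinned shares with Sox8 were 2.11% (1.23 to 3.36), 0.833% (0.172 to 2.42) and 3.02% (1.74 to 4.87) of tip-like cells, and unthinned 7.33%, 4.72% and 18.1%. In endothelium the thinned share was 0.524% in Enl-WT, and 0 of 256 cells in Enl-T1 and 0 of 115 in TDI-11055 allow up to 1.17% and 2.61%. The Enl-T1 share was therefore not separable from background at this depth. The gene 2810468N07Rik, antisense to Sox8, had 79, 93 and 166 UMIs against 135, 80 and 197 for Sox8 over all kept cells, and whether counting used the strand is not given in the sources used here. Sox8 and Sox9 were both seen in 0.870%, 0.556% and 2.08% of thinned tip-like cells, and the product of their shares was 0.674%, 0.403% and 1.30%.

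Of 7 SoxE partners and targets, 4 reached 5 CPM in ureteric epithelium. Against Enl-WT, 0 were higher in Enl-T1 and 2 were lower, where 5.68% and 26.8% of all genes were, and their median log2 ratio was −0.80. With TDI-11055 3 were higher than in Enl-T1 and 1 lower, where 7.70% and 9.73% of all genes were, and the median was 0.96. Etv4, a Ret target in the tip, was at 94.2, 38.9 and 121.1 CPM in ureteric epithelium. It was lowest in Enl-T1 outside this epithelium as well. It was at 68.1, 33.5 and 73.5 CPM in NP1-like cells, 19.3, 5.90 and 27.0 CPM in stroma and 12.9, 3.77 and 11.4 CPM in endothelium. Spry1, the feedback inhibitor of Ret, was at 192.3, 163.6 and 270.1 CPM in ureteric epithelium. Col2a1 was at 7.94, 2.71 and 6.21 CPM, and Col18a1, a basement membrane collagen, at 426.6, 339.7 and 187.3 CPM. Over the whole epithelium Etv4, Spry1 and Col2a1 were thus lowest in Enl-T1, as Sox8 was and Sox9 was not. Within tip-like cells this held for Etv4 (179.7, 108.9 and 194.8 CPM) and Col2a1 (13.3, 5.75 and 9.39 CPM). Spry1 was at 221.0, 238.4 and 297.0 CPM in tip-like cells, where Enl-WT was its lowest library. The 7 tip markers summed over the whole epithelium were also lowest in Enl-T1, at 624.8, 332.2 and 676.9 CPM. Within tip-like cells they were at 1101.8, 825.0 and 1028.8 CPM. The part of that change in the levels of Sox8, Etv4, Spry1 and Col2a1 was not tested.

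The SoxF genes Sox17 and Sox18 are endothelial regulators, Sox17 of arteries and Sox18 of lymphatic and young vessels. Both were confined to endothelium above background and both were at or above the Enl-WT level in the other libraries, while arterial genes were lower. Sox17 was at 138.6, 172.3 and 199.8 CPM in endothelium (399, 548 and 352 UMIs). Enl-T1 was 1.24 (1.09 to 1.42) times Enl-WT, 0.63 on the log2 scale beyond the median gene, and TDI-11055 was 1.16 (1.01 to 1.33) times Enl-T1. The direction of the first ratio differed with the sex of the cells counted: in cells with Xist alone the log2 ratio was −0.11, against 0.93 in cells with Y-linked UMIs only. That of the second went from 0.21 to −0.04 when cells with over 6000 genes were kept. Sox18 was at 50.4, 77.7 and 72.7 CPM, with ratios of 1.54 (1.25 to 1.91) and 0.935 (0.75 to 1.16). Its first log2 ratio, 0.62, fell short of 1.5-fold with doublets removed (0.54), with no upper limit on genes (0.50) and in cells with Xist alone (0.31), and was 0.97 in cells with Y-linked UMIs only. Their relative Sox7 was at 84.8, 80.5 and 80.6 CPM, with ratios of 0.95 and 1.00. In NP1-like cells Sox17 had 2, 0 and 7 UMIs and Sox18 had 1 in each library.

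Shares of thinned endothelial cells with Sox17 were 22.3% (18.2 to 26.8), 25% (19.8 to 30.8) and 23.5% (16.1 to 32.3), and unthinned 46.7%, 67.2% and 67.8%. Of thinned NP1-like cells 0.287%, 0 of 590 cells (up to 0.508%) and 0.171% had a Sox17 UMI. The endothelial shares thus lay close together and far above this background. Sox18 was in 11.8% (8.72 to 15.4), 16.8% (12.4 to 22.0) and 9.57% (4.87 to 16.5) of thinned cells, which goes against its CPM in TDI-11055, so no order of that library was read. Both genes together were seen in 2.88%, 3.91% and 2.61% of thinned cells, where the product of the shares was 2.62%, 4.20% and 2.25%.

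All 9 arterial genes listed reached 5 CPM in endothelium. Against Enl-WT, 0 were at least 1.5-fold higher in Enl-T1 and 8 were lower, with a median log2 ratio of −1.02, beside 29.1% of all genes lower and a median of −0.31. With TDI-11055 1 was higher than in Enl-T1 and 2 were lower, beside 9.36% and 19.2% of all genes. Efnb2, the arterial ephrin, was at 321.4, 158.8 and 146.5 CPM. Unc5b, a netrin receptor of arteries, was at 240.8, 75.2 and 62.4 CPM. Gja4, an arterial connexin, was at 185.2, 66.7 and 93.7 CPM, and Dll4, the arterial Notch ligand and a known SoxF target, at 94.2, 48.1 and 34.1 CPM. In each of these Enl-WT was the highest library, the reverse of Sox17. Gja5, another arterial connexin named after its values were seen, was at 107.7, 17.0 and 9.65 CPM. Outside endothelium fewer of the 9 genes reached 5 CPM. In stroma all 4 that did were at least 1.5-fold lower in Enl-T1, with a median log2 ratio of −2.08, beside 29.2% of all genes. NP1-like cells had 1 of 4 higher and 1 lower, and ureteric epithelium 0 of 3 higher and 1 lower. One of these 4 was Gja5, at 23.2, 0.454 and 0.862 CPM in stroma, which was among the leading genes of a renin or mesangial-like cluster. Renin or mesangial-like cells numbered 180, 94 and 23 of 871, 1391 and 270 stromal cells. The part of this makeup in the stromal values was not tested. Whether the stromal and endothelial differences are linked was not tested either.

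**Figure D4:**
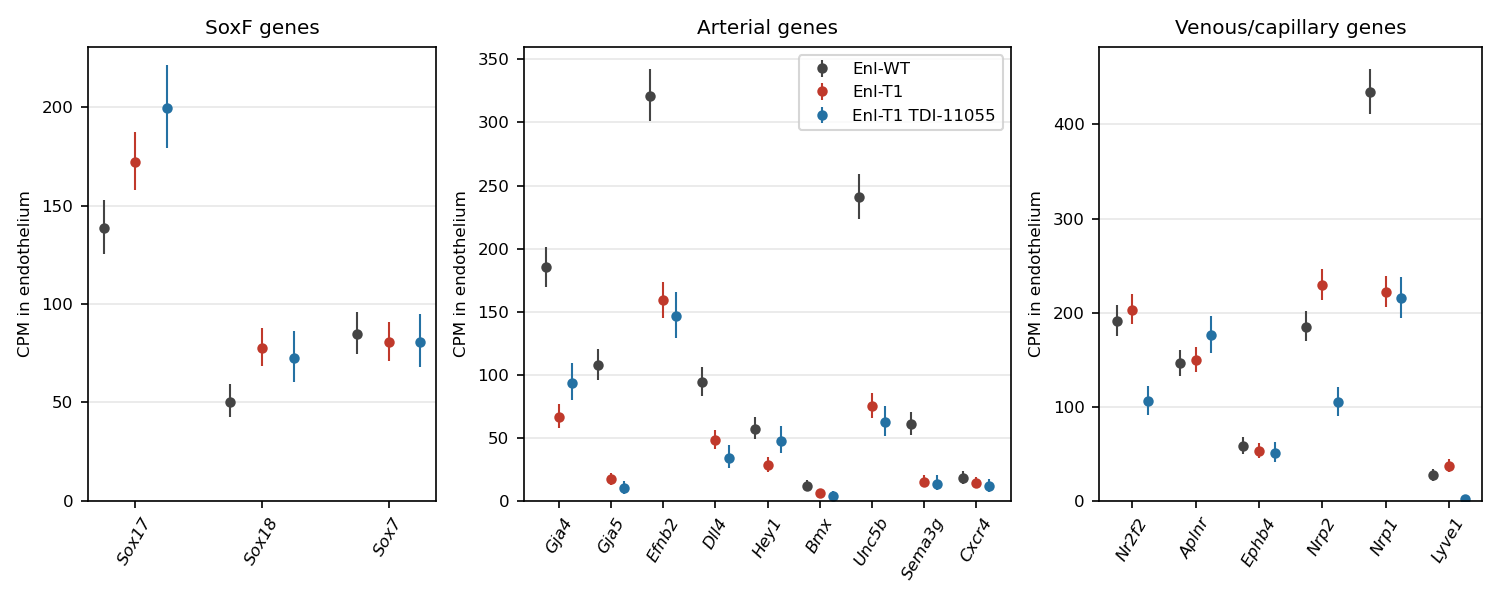
Levels (CPM) in endothelium of the SoxF genes, the arterial genes and the venous or capillary genes, a point per library with 95% counting intervals. Most arterial genes are highest in Enl-WT, while Sox17 and Sox18 are lowest there.

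The 6 venous or capillary genes did not share this. In Enl-T1 0 were higher and 1 was lower, beside 5.86% and 29.1% of all genes, with a median log2 ratio of 0.06. With TDI-11055 0 were higher and 3 lower, beside 9.36% and 19.2%. Nrp1, the gene that was lower in Enl-T1, was at 434.7, 222.0 and 215.2 CPM. Nr2f2, which sets venous identity, was at 191.1, 203.2 and 105.6 CPM, Nrp2 at 184.9, 229.3 and 105.0 CPM, and Aplnr at 145.9, 149.7 and 176.0 CPM. Of 7 SoxF partners and targets, 6 reached 5 CPM, of which 1 was higher and 2 lower in Enl-T1, near the 5.86% and 29.1% of all genes. Mef2c was at 530.6, 493.8 and 372.4 CPM and Notch1 at 336.0, 169.2 and 138.5 CPM, Robo4 at 94.2, 84.3 and 82.9 CPM.

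Within each library the link of Sox17 with arterial genes was kept. Endothelial cells with a Sox17 UMI after thinning had 1817.6 CPM of the arterial genes in the Enl-WT library (85 cells) against 814.8 CPM in those without (297 cells). In Enl-T1 the values were 578.1 CPM (64 cells) and 302.1 CPM (192 cells), and in TDI-11055 703.7 CPM (27 cells) and 323.9 CPM (88 cells). Arterial genes were thus higher in Sox17 cells in 3 of 3 libraries, but the Sox17 cells of Enl-T1 and TDI-11055 had less of them than the Sox17 cells of Enl-WT. The venous or capillary genes summed to 982.4, 765.6 and 537.0 CPM in cells with Sox17, and to 1159.9, 895.8 and 528.4 CPM in cells without.

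The order of classes was read from all 3 libraries, among the 8 classes plotted, which had at least 50 cells in each library. Smaller and unnamed classes and whole lineages were not ranked. Sox4 was higher in trunk-like than in tip-like ureteric cells, and higher in those than in NP1-like cells, in 3 of 3 libraries, and lowest on average in endothelium. Sox11 had another order: NP2-like and distal cells had the highest means but led together only in Enl-T1, tip-like cells were above NP1-like cells in 3 of 3, and Foxd1 stroma-like cells were lowest in all. For Sox9, tip-like, distal and trunk-like cells kept their order in 3 of 3 libraries, while urothelium-like and Foxd1 stroma-like cells below them did not. Sox6 was higher in trunk-like than in tip-like cells in 3 of 3 libraries, and tip-like and urothelium-like cells were not separated.

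Likeness in pattern was measured as the Pearson correlation of log2(CPM + 10) over 33 units of class and library with at least 50 cells, which share libraries and depth. Sox17 was most like its relative Sox7 (0.99), Clec1a and Aplnr, and Sox18 most like the capillary gene Gpihbp1 (1.0), Ctla2b and Gimap5. Sox6 was most like Klhl2 (0.92), Plekha1 and Arhgef5, and Sox11 most like Sinhcaf (0.92), Zcchc18 and Ccdc43. Sox9 was most like Ccdc106 (0.84), Sct and Flywch2, and Sox8 most like Jph1 (0.84), the tip ligand gene Wnt11 and Nrg3. Sox4 was most like Kdm1a (0.81), Mex3a and Eml4, Sox5 most like Slc44a2 (0.81), Ano6 and Sept9, and Sox12 most like Wdr6 (0.84), Zcchc3 and Ncam1. Among members of a subgroup the value was 0.99 for Sox17 and Sox18. Both were at stray levels outside endothelium, so this value and those of their nearest genes reflect confinement to endothelium, not likeness within it. The value was 0.36 for Sox8 and Sox9, 0.35 for Sox5 and Sox6 and 0.27 for Sox4 and Sox11. The other SoxC pairs had 0.39 (Sox4 and Sox12) and 0.01 (Sox11 and Sox12). Sox8 stayed below 20 CPM in every unit, where the added 10 CPM flattens differences, so its values and nearest genes tell little. The SoxC and SoxD relatives thus had unlike patterns over these units.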

How the data were processed

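Kidneys at embryonic day 15.5 were profiled by droplet single-cell RNA-seq in 1 library per group. The UMI counts deposited by the authors were made from reads aligned to mm10 with Cell Ranger 6.1.2, per the labels, and were raw counts per gene and barcode. Whether strand was used in counting is not given in the sources used here. From 7186, 6575 and 6453 barcodes (Enl-WT, Enl-T1, TDI-11055), those with 1000 to 6000 genes and no more than 10% mitochondrial UMIs were used, which left 5233, 4144 and 2754 cells. Libraries were joined with Seurat 5.3.0 anchors in R 4.3.3 and clustered on 2000 features and 30 components at a resolution of 0.5, after 234 genes, among them every Sox and Hox gene and the related lists, had been left out. Clusters were named from marker lists with at least 3 detected markers and a mean level above that of the other cells. Clusters without such a list stayed unnamed. So did shallow clusters with no marker among their leading genes, and subclusters led by markers of another lineage. Doublets were called with Scrublet in scanpy 1.11.5 and removed only as an alternative. Its own threshold marked 6 barcodes of the TDI-11055 library, so 89 were removed there instead.

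UMIs were summed per class and library and given as CPM of that sum, with exact Poisson intervals, in Python 3.11.15 with numpy 2.4.6, scipy 1.17.1 and pandas 2.3.3. Ratios have exact binomial intervals of how their UMIs divide between the libraries. A gene counted as higher or lower at 1.5-fold, among genes with a mean of at least 5 CPM in the class. Shares of cells with a UMI were taken after thinning each cell to 2000 UMIs, which left out 96, 15 and 20 shallower cells, with Clopper-Pearson intervals (for a count of 0, the share that 3 cells would be), and co-detection was set beside the product of the shares. These steps were tested on simulated data. All 9 members were named, and from each related list up to 4 genes with the largest mean CPM, besides the 3 genes most like each member. Genes named outside this rule are said to be so. The members and lists were chosen with earlier results of these data known. Sequences came from the GENCODE M21 transcripts on GRCm38. Other scalings, cell filters, fold and level thresholds and clusterings were tried as alternatives.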

Additional observations from a re-analysis of the deposited data

Results flagged for a closer look

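Sox4 and Sox9 had opposite ratios of TDI-11055 to untreated Enl-T1 in different lineages, with counting intervals that lie on opposite sides of 1, and the difference between lineages was not tested, since each group was 1 library. For Sox9 the ratio was 0.249 in stroma and 1.34 in ureteric epithelium. Within tip-like cells it was 0.861, and the ratio above 1 was seen in the epithelium taken whole. For Sox4 the ratio was 1.11 in stroma and 1.19 in ureteric epithelium, against 0.755 in endothelium.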

How the results depend on the processing

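Of the log2 ratios and counts planned, 69 values under an alternative stayed within the interval of the main value (for counts, within 1.5 times), 30 moved outside it and 3 whose main interval did not include 0 changed sign. Ratios of TDI-11055 to Enl-T1 whose interval included 0 also changed sign under some settings. The cause of these moves was not tested. Removing doublets and clustering on all variable genes left 14 of 14 planned values inside. For Enl-T1 over Enl-WT, Sox4 in NP1-like cells (−0.53) was −0.21 with median-of-ratios scaling, −0.31 with a total that leaves out mitochondrial, ribosomal protein and haemoglobin genes, −0.62 in cells with Xist only and −0.40 in cells with Y-linked UMIs only. Sox11 there (−0.67) was −0.34, −0.44, −0.81 and −0.35 in the same order. Sox9 in ureteric epithelium (0.58) was 0.87, 0.72, 0.44 and 0.98, and 0.37 with no upper limit on genes. Sox11 in stroma (−0.55) was −0.25 and −0.37 with the other scalings and −0.35 in cells with Y-linked UMIs. Sox17 in endothelium (0.31) was 0.62, 0.52, −0.11 and 0.93, and Sox18 (0.62) was 0.31 in cells with Xist only and 0.97 in cells with Y-linked UMIs. For TDI-11055 over Enl-T1, Sox4 in NP1-like cells (0.03) was 0.11 in cells with Xist only. Sox11 there (0.04) was 0.17 with no upper limit, 0.20 in cells with Xist only and −0.13 in cells with Y-linked UMIs. Sox9 in ureteric epithelium (0.42) was 0.66 and −0.03 in these cells. Sox17 in endothelium (0.21) was −0.04 with no upper limit and 0.01 in cells with Y-linked UMIs, and Sox18 (−0.10) was −0.54 in the latter. At 2-fold, 6 combinations of gene and class differed between Enl-T1 and Enl-WT in place of 12, and with at least 20 CPM 1 differed between TDI-11055 and Enl-T1 in place of 3. Sox9 in stroma and the other ratios not planned were added after seeing the data, as were the alternatives for them. The stromal Sox9 ratio of Enl-T1 to Enl-WT (2.17) was 3.0 in cells with Xist only, and that of TDI-11055 to Enl-T1 (−2.01) was −1.62 with no upper limit on genes. It stayed within its interval without ureteric stroma-like cells and without the stromal cluster led by ureteric epithelial genes. Tip-like cells were not set apart under the clustering on all variable genes or without the upper limit, so Sox8 and Sox9 in the tip have no value there. The tip-like Sox8 ratio of Enl-T1 to Enl-WT (−1.68) was −0.92 in cells with Xist only. No paired analysis was possible because each group was 1 library. Depth differed between libraries, and values that rest on few UMIs carry wide counting intervals.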

Other observations

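Several nephron classes too small for the main comparison also differed in Sox levels. In intermediate-like cells, the early epithelial nephron with Cdh6 and Dll1, Sox11 was at 546.6, 1203.6 and 575.4 CPM in the Enl-WT, Enl-T1 and TDI-11055 libraries, and Sox9 at 20.2, 128.4 and 45.4 CPM, from 202, 32 and 90 cells. In podocyte-like cells Sox11 was at 165.5, 536.4 and 582.0 CPM and Sox9 at 7.74, 43.2 and 14.1 CPM, from 223, 43 and 28 cells. The high Enl-T1 values of both classes came from few cells. A nephron cluster led by Sst, Akap12, Meg3 and Col1a1 held 44, 233 and 16 cells and was left unnamed. Sox9 there was at 18.4, 129.2 and 12.7 CPM (5, 255 and 3 UMIs), while Sox4 was at 908.3, 375.0 and 572.1 CPM.

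Endothelial cells held a small cluster led by the lymphatic genes Ccl21a, Mmrn1, Nrp2, Prox1 and Lyve1, with 16, 23 and 2 cells. Sox18, which acts upstream of Prox1 in lymphatic development, had 3, 24 and 4 UMIs there, or 29.3, 107.4 and 122.0 CPM, and Sox17 had 0, 11 and 1 UMIs. The Prox1 level of the whole endothelium, named after its values were seen, was 43.1, 69.8 and 6.24 CPM. It was 801.6, 872.3 and 213.4 CPM in this cluster and 15.1, 9.13 and 2.31 CPM in the large one. In the large endothelial cluster Sox17 was at 143.8, 181.7 and 203.0 CPM and Sox18 at 51.2, 75.4 and 71.7 CPM, in the same order as in the endothelium taken whole.

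The 5 Wnt effectors that SOX proteins bind or oppose all reached 5 CPM. In the NP1-like cells of Enl-T1, 1 was above Enl-WT and 2 were below, where 6.31% and 31.5% of all genes were. Ctnnb1, which encodes beta-catenin, was at 385.9, 223.4 and 232.3 CPM and Tcf7l1 at 167.7, 43.6 and 65.1 CPM, Tcf7l2 at 96.4, 74.6 and 66.9 CPM and Tcf7 at 18.5, 13.0 and 10.4 CPM. Lef1, a Wnt target as well as an effector and named after its values were seen, was the higher gene, at 6.17, 28.0 and 5.60 CPM. Stroma had 1 higher and 0 lower (6.89% and 29.2% of all genes), ureteric epithelium 0 and 3 (5.68% and 26.8%) and endothelium 2 and 0 (5.86% and 29.1%). With TDI-11055 the counts against Enl-T1 were 0 higher and 1 lower in NP1-like cells (6.49% and 8.46% of all genes), 0 and 1 in stroma (10.8% and 12.5%), 2 and 0 in ureteric epithelium (7.70% and 9.73%) and 0 and 4 in endothelium (9.36% and 19.2%).

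Of 11 other Sox genes, Sox7 and Sox13 reached a mean of 5 CPM in a lineage, and neither passed 1.5-fold in either contrast in a lineage where it did. Sox13 had 574, 679 and 620 UMIs over all kept cells. The other 9 had at most 22 UMIs in a library, and Sry had 0.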
